A study of Mus musculus with 12 samples.

Results

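The small heat shock protein family is described here through 7 genes of mouse hind limb muscle. They were picked by symbol as named members of the family, with no measured value in the rule, and are Cryab, Hspb1, Hspb2, Hspb3, Hspb6, Hspb7 and Hspb8, out of 22923 gene symbols measured, and all 7 had a row of their own. Levels are given in FPKM, fragments scaled for transcript length and for the mapped fragments of the library, so that genes can be compared per length.

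RNA was sequenced from 12 samples of proximal hind limb skeletal muscle of male FVB mice (FVB/N in the study's methods), all 22 weeks old, in 4 groups of 3. The WT groups, whose samples are titled Flox, were littermates on normal chow or on a high fat diet. The αB-crystallin/HspB2 knockout (KO) groups, on the same diets, lacked Cryab and Hspb2 together and in every tissue, so a difference of genotype cannot be assigned to one of those genes or to muscle alone. The genotype label went against the title in 6 of the 12 samples, and the title was used.

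Small heat shock proteins are ATP-independent chaperones that share an α-crystallin domain. They bind partly unfolded proteins, hold them in a soluble state and pass them to ATP-dependent chaperones for refolding or to degradation. In striated muscle they are abundant, associate with desmin, actin and titin at the Z-disc, and form mixed assemblies with each other. The question put to these data was whether RNA of the 5 remaining genes was higher where Cryab and Hspb2 were deleted.

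None of the 5 remaining genes passed the test for genotype on either diet or averaged over both. The test was limma on log2(FPKM + 1), with p-values adjusted by the Benjamini-Hochberg method over all 11945 genes tested and a threshold of 0.05. Of all genes tested, 0.0586% were called on chow, 0.109% on high fat diet and 0.862% averaged over diets. A count of 0 in 5 genes is near these shares and does not set the 5 genes apart. Mean levels of Hspb1, Hspb7 and Hspb8 were above WT in KO muscle on both diets, at 112% to 150.1% of it, while mean Hspb6 stood at 74.5% of WT on chow and 78.4% on high fat diet. The summed level of the 5 genes in KO muscle was 98.0% of WT on chow and 108% on high fat diet, and each of these turned to the other side of WT when 1 sample was left out.

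The labelled tissue and the libraries were checked on markers. Sums over 6 skeletal muscle markers lay between 58835 and 102886 FPKM. Myh4, a fast myosin, was listed at 0 in all 12 samples, and Acta1, skeletal α-actin, was listed at 0 in WT chow sample 1 and KO high fat sample 2, while other muscle genes were high there. Those zeros can be failed estimates. The zeros of Acta1 enter the skeletal muscle sums above, whose lowest value was that of KO high fat sample 2. The summed FPKM of KO chow sample 3 was dominated by Mir324. Depth in reads is unknown, and steps between low values put the relative depth of the libraries between 1 and 1.36. Summed slow fibre markers were 312 FPKM in WT chow sample 3 and 173 FPKM in WT high fat sample 1, against 639 to 2580 FPKM in the others. Summed B cell markers were between 29.8 and 35.4 FPKM in WT chow sample 2 and KO chow samples 1 and 3, and at most 3.32 FPKM elsewhere. Whether each sample was a separate mouse rests on the study's description, and p-values set group differences against the spread between samples within groups.

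Promoter sequences of the remaining genes are given because heat shock factor 1 (HSF1), the stress-responsive activator of chaperone genes, binds inverted repeats of nGAAn. The RefSeq table of build GRCm38.p6 held windows for 5 of the 7 members, in 6 windows, each from 250 bases before to 50 after a start. Cryab and Hspb2 were not matched. The head-to-head arrangement searched was GAANNTTC, the tail-to-tail arrangement TTCNNGAA, and a TATA box was TATAAA. The arrangements GAANNTTC and TTCNNGAA read the same on both strands, TATAAA was searched on both, and matches could overlap. Capitals mark matches, and each sequence is written in the direction of its gene.

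The 250 bases before the start of Hspb1 (plus strand, chr5:135887669-135887918) held 2 head-to-head matches, from -117 to -110 and from -97 to -90.
Hspb1: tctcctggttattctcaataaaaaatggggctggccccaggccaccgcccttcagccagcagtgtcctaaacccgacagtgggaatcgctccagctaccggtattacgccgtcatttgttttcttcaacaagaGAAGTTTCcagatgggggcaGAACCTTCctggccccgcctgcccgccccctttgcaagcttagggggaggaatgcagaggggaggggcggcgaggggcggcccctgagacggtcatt

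The second of the Hspb6 windows (plus strand, chr7:30553051-30553300) held 1 match from -120 to -113 and a TATA box from -29 to -24. The first (chr7:30552290-30552539) held neither.
Hspb6: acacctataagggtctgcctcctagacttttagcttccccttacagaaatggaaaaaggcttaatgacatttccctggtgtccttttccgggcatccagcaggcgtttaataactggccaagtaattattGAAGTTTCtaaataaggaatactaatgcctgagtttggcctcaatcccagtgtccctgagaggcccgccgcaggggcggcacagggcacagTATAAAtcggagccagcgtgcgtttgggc

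Hspb7 (plus strand, chr4:141420529-141420778) held no match to any of these letters and is shown beside the others for that reason.
Hspb7: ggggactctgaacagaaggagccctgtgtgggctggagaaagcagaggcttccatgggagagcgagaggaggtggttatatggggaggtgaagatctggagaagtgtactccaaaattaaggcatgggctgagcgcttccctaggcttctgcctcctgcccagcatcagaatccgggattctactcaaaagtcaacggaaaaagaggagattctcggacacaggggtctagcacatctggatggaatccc

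In Hspb8 (minus strand, chr5:116422844-116422873) the match lay just past the start, from 2 to 9, and in Hspb3 (minus strand, chr13:113663882-113663911) from -224 to -217. Hspb3 also held a TATA box, from -11 to -6, outside the stretch shown. Only the 30 bases around each head-to-head match are printed.
Hspb8: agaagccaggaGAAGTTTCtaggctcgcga
Hspb3: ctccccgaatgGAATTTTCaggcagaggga

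Head-to-head matches were thus found in windows of 4 of the 5 genes, Hspb1, Hspb3, Hspb6 and Hspb8. Over all 32851 windows of the table, 7.86% of the 300-base windows and 6.69% of the upstream stretches held one. For TTCNNGAA the shares were 8.52% and 7.17%, and no member window held it. TATAAA was in 13.6% and 12.4%, and in windows of 2 of the 5 genes, Hspb3 and Hspb6. A match of letters is a description of the sequence and not evidence of binding.

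The deleted genes come first. Cryab encodes αB-crystallin, the most studied desmin chaperone of muscle, and Hspb2 encodes a binding partner of the myotonic dystrophy kinase. In GRCm38 the annotation has Cryab at chr9:50751325-50756636, plus strand, and Hspb2 at chr9:50751078-50752354, minus strand, so their spans overlap. The quantification is not stated to use strand, and reads in the overlap cannot be told apart.

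In WT muscle Cryab ran from 412 to 561 FPKM on chow and from 650 to 837 FPKM on high fat diet. In KO muscle it was at most 1.75 FPKM. Hspb2 ran from 81.5 to 103 FPKM in WT muscle and was at most 1.92 FPKM in KO muscle, so the titles separated the samples completely for both genes.

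Both deleted genes were far below WT on each diet. Cryab differed by -7.78 ± 0.17 on chow and -8.30 ± 0.17 on high fat diet, and Hspb2 by -5.92 ± 0.21 and -5.59 ± 0.21 (log2, SE, n = 3 per group, limma). They were 2 of 7 genes called on chow, 0.0586% of those tested, and 2 of 13 on high fat diet, 0.109%. Groups of 3 that do not overlap, with KO below WT, were found for 10.2% of genes on chow and 10.7% on high fat diet. The differences are on the log2(FPKM + 1) scale, which understates the change of genes near 0.

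Together Cryab and Hspb2 supplied 29.4% ± 1.60 of the summed FPKM of the 7 genes in WT muscle on chow and 33.3% ± 3.72 on high fat diet (SD, n = 3). The ratio of Cryab to Hspb2 in WT muscle was 5.60 ± 1.00 on chow and 7.43 ± 1.03 on high fat diet. The ranges of that ratio overlapped, 4.56 to 6.57 against 6.31 to 8.34.

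**Figure D1:**
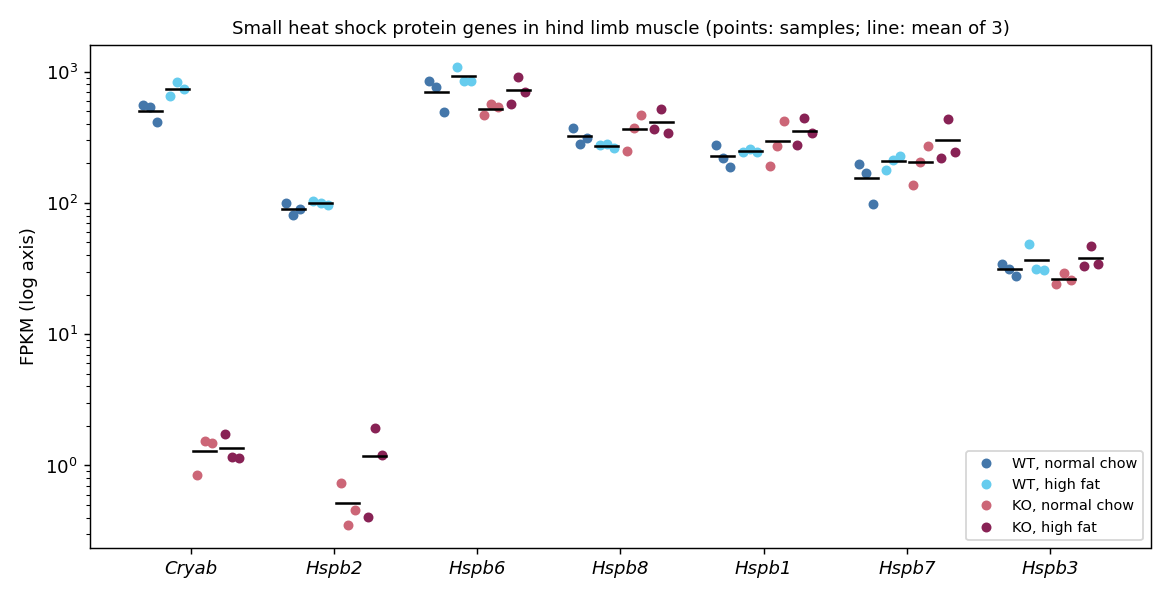
FPKM of the 7 genes on a log axis, with a point for each of 12 samples and a line at the mean of 3. Cryab was at most 1.75 and Hspb2 at most 1.92 FPKM in KO samples, while the lowest KO point of the 5 remaining genes was 24.2 FPKM, for Hspb3.

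Hspb6, also called Hsp20, is a muscle chaperone phosphorylated by cyclic-nucleotide-dependent kinases. It was the highest of the 7 genes by mean in every group. WT chow muscle held 848, 765 and 496 FPKM and KO chow muscle 471, 564 and 535 FPKM. WT mice fed high fat held 1074, 845 and 841 FPKM and KO muscle 563, 903 and 699 FPKM. The lower WT chow value came from sample 3, and 1 KO sample on high fat diet stood above 2 of the 3 WT samples, so the groups overlapped on both diets.

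Averaged over diets, Hspb6 differed between KO and WT by -0.38 ± 0.15 (log2, SE), 0.77-fold with an interval of 0.61 to 0.97. The limma p was 0.031 before adjustment and 0.15 after it, so it did not pass. With the main settings it was the only one of the 5 remaining genes with an unadjusted p under 0.05 in the lower direction. Of all genes tested 13.4% had one. The count in that direction was 0 under quantile normalization and under skeletal muscle marker scaling. It was also 0 without WT chow sample 1 or 2, WT high fat sample 1, KO chow sample 1, or KO high fat sample 1 or 3. Among other settings, it stayed 1 with a pseudocount of 0.1, no filter, the replicate block, median-of-ratios scaling and no intensity trend.

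Hspb8 (Hsp22) works with the co-chaperone BAG3 to clear misfolded proteins by autophagy. WT chow muscle held 372, 281 and 315 FPKM and KO chow muscle 250, 369 and 468 FPKM. WT mice fed high fat held 277, 282 and 260 FPKM and KO muscle 367, 522 and 340 FPKM. On chow the KO samples lay on both sides of WT, and on high fat diet every KO sample lay above every WT sample.

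On high fat diet Hspb8 differed by 0.56 ± 0.22 (log2, SE), 1.47-fold with an interval of 1.05 to 2.06, with limma p of 0.028 before adjustment and 0.24 after it. With the main settings it was the only one of the 5 remaining genes past an unadjusted p of 0.05 in either direction there. Of all genes 9.79% did so upward and 6.45% downward. The upward count of the 5 genes was 0 without WT high fat sample 3 and under skeletal muscle marker scaling. It was also 0 without the 2 samples low in slow fibre markers. Without KO high fat sample 2, and with grouping by genotype label, it was 0 upward and 1 downward. It was 2 upward under quantile normalization and with only the 2 groups compared. Leaving out KO chow sample 1 or 3, or KO high fat sample 1, also gave 2 upward. Averaged over diets Hspb8 differed by 0.35 ± 0.16, with limma p of 0.049 before adjustment and 0.19 after it. With the main settings it was the only remaining gene so in the higher direction, against 13.1% of genes. That count was 0 with no filter on low values and with the replicate number as a block. It was 3 under quantile normalization and without WT chow sample 1. The Hspb8 difference on chow was 0.13 ± 0.22.

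Hspb1 encodes Hsp27 (Hsp25 in the mouse), a regulator of actin filaments and a substrate of the kinase MAPKAPK2. WT chow muscle held 274, 221 and 188 FPKM and KO chow muscle 190, 270 and 421 FPKM. The high fat WT samples held 245, 256 and 243 FPKM and KO muscle 275, 440 and 341 FPKM. KO chow sample 3 stood above all others on chow while KO chow sample 1 was near the lowest WT sample, and on high fat diet the groups did not overlap.

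Hspb1 differed by 0.31 ± 0.26 on chow, 0.48 ± 0.26 on high fat diet and 0.39 ± 0.18 averaged over diets (log2, SE), the last 1.31-fold with an interval of 0.99 to 1.74 and an adjusted p of 0.20 (limma). With Hspb8 it made 2 of 5 remaining genes whose KO samples all lay above WT on high fat diet, where this held for 13% of genes.

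Hspb7 (cvHSP) is a muscle-enriched member that binds the filamin C of the sarcomere. WT chow muscle held 197, 167 and 97.9 FPKM and KO chow muscle 136, 204 and 270 FPKM. The high fat WT samples held 179, 214 and 228 FPKM and KO muscle 219, 439 and 243 FPKM. The groups overlapped on both diets, and KO high fat sample 2 stood well above the other KO samples.

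The Hspb7 difference averaged over diets was 0.44 ± 0.23 (log2, SE), 1.35-fold with an interval of 0.95 to 1.93, the largest estimate among the 5 remaining genes and also the one with the largest error. Its adjusted p was 0.25 (limma).

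Hspb3 forms a complex with HSPB2 in developing muscle and was the lowest of the 7 genes in WT muscle. WT chow muscle held 34.5, 31.4 and 27.7 FPKM and KO chow muscle 24.2, 29.3 and 25.7 FPKM. The WT samples on high fat diet held 48.8, 31.5 and 30.6 FPKM and KO muscle 33.0, 47.3 and 34.3 FPKM. The genotypes overlapped on both diets, and the averaged difference was -0.09 ± 0.13 (log2, SE), with a 0.94-fold interval of 0.77 to 1.15 and an adjusted p of 0.70 (limma). Its sign was the opposite under skeletal muscle marker scaling.

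**Figure D2:**
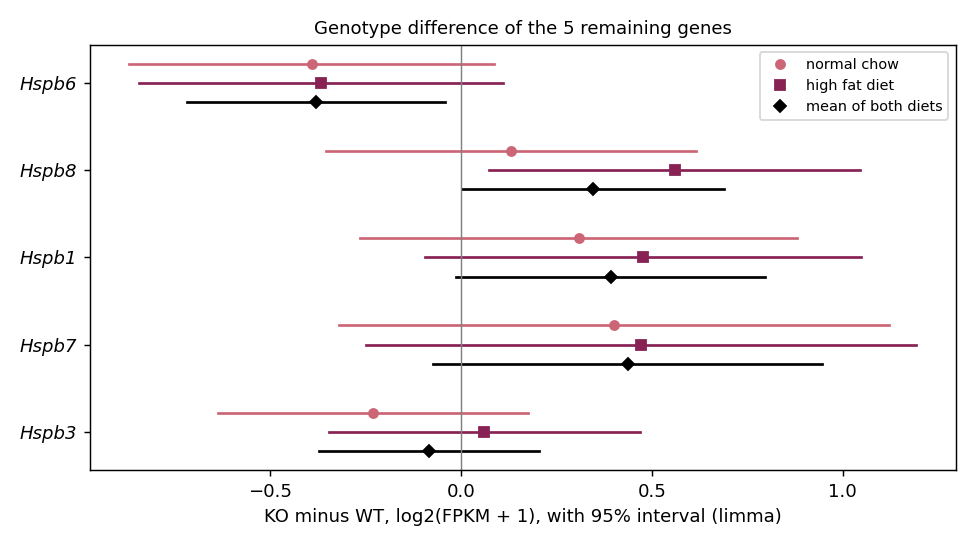
Difference between KO and WT of the 5 remaining genes on log2(FPKM + 1), with the estimate as a symbol and its 95% limma interval as a line, on chow, on high fat diet and averaged over diets. Only the intervals of Hspb8 on high fat diet and of Hspb6 and Hspb8 averaged over diets lay clear of 0, before adjustment for 11945 genes.

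Counted together, 0 of 5 remaining genes were called on chow, on high fat diet or averaged over diets with limma at the adjusted threshold. Of all genes, 0.0586%, 0.109% and 0.862% were called in these comparisons. At an unadjusted p under 0.05 with the main settings the count was 0 on chow, beside 6.73% of all genes upward and 9.93% downward. It was 1 on high fat diet and 2 averaged over diets, and these counts moved with the setting. The median of the 5 differences was 0.13 on chow and 0.47 on high fat diet (log2), beside medians over all genes of -0.03 and -0.01. Under each alternative setting run (23 for either diet and 22 averaged over them), no remaining gene was called. A p that misses the threshold does not show that levels were alike, and the intervals above leave room for differences of up to 1.93-fold in the averaged comparison.

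Scaling by skeletal muscle markers used 5 genes, Ckm, Mylpf, Actn3, Tnnt3 and Pvalb. It moved the median difference over all genes to 0.26 on chow and -0.07 on high fat diet. The scale follows those 5 genes and was not shown to follow the share of muscle in a sample. Relative to that scale Hspb1, Hspb7 and Hspb8 kept positive differences of 0.52, 0.57 and 0.48 and Hspb6 a negative one of -0.25, averaged over diets, none of them called. In bulk muscle, more cells of a type and more RNA per cell cannot be told apart for any of these values.

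Summed over the 7 genes, WT muscle held 2032 ± 383 FPKM on chow and 2524 ± 82.1 on high fat diet, and KO muscle 1411 ± 326 and 1824 ± 470 (SD, n = 3). On high fat diet the highest KO sample, 2355 FPKM, lay under the lowest WT sample, 2430 FPKM, and on chow the highest KO sample, 1722 FPKM, lay above the lowest WT sample, 1626 FPKM. KO muscle thus held 69.4% and 72.3% of the WT sum. These sums weigh RNA and not protein.

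In FPKM, the means of Cryab and Hspb2 together were 593 and 839 in WT muscle on the 2 diets and 1.81 and 2.53 in KO muscle. The summed mean of Hspb1, Hspb7 and Hspb8 was higher in KO than in WT muscle by 155 on chow and 334 on high fat diet, and that of Hspb6 was lower by 180 and 199. The 5 remaining genes came to 1438 ± 302 and 1685 ± 121 in WT muscle and 1409 ± 325 and 1822 ± 469 in KO muscle, and the groups overlapped on both diets. The direction of that sum turned with single samples. On the log2 scale, KO over WT was -0.03 on chow, but 0.12 without WT chow sample 1 and 0.13 without KO chow sample 1. It was 0.11 on high fat diet, but -0.11 without KO high fat sample 2.

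The make-up of the 5-gene sum was also described. Hspb6 supplied 49.2%, 52.2% and 44.1% of it in WT muscle on chow and 44.0%, 39.3% and 31.1% in KO muscle. On high fat diet the shares were 58.9%, 51.9% and 52.5% in WT muscle and 38.6%, 38.4% and 42.2% in KO muscle. Every KO share lay below every WT share on both diets, on chow by only 44.0% against 44.1%. The share was chosen for description after the values were seen and was not tested.

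**Figure D3:**
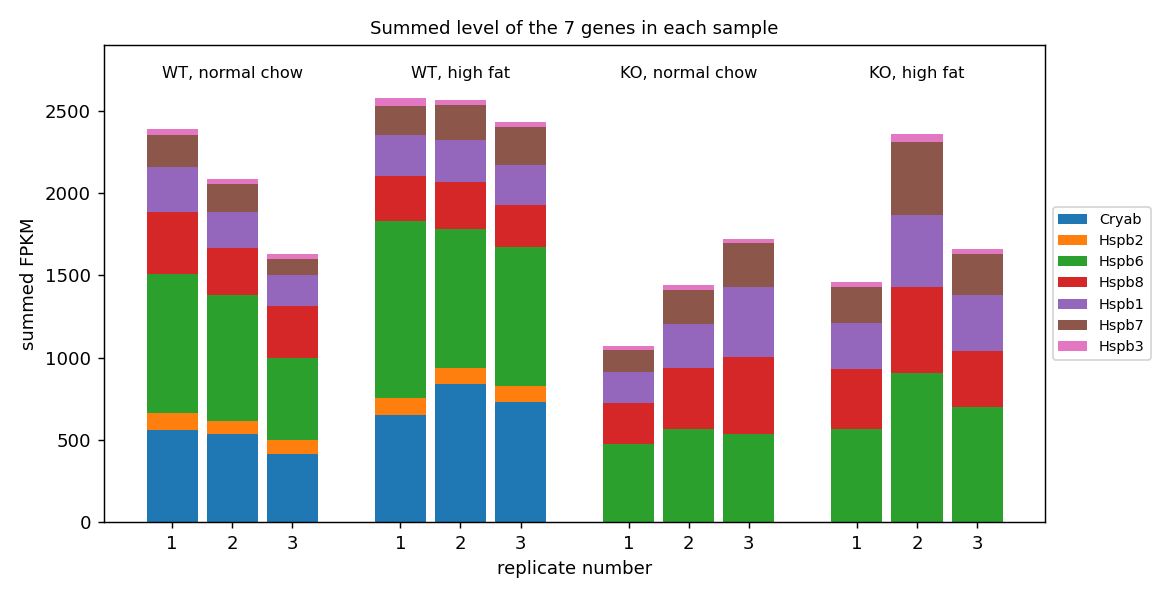
Summed FPKM of the 7 genes in each of 12 samples, stacked by gene from 0. The Cryab and Hspb2 segments are too small to see in KO bars, and the rest of the KO bars runs from 1071 to 2351 FPKM against 1124 to 1824 FPKM in WT.

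Diet was compared within each genotype. Cryab in WT muscle was higher on high fat diet by 0.56 ± 0.17 (log2, SE), with no overlap between the diets, with limma p of 0.0065 before adjustment and 0.27 after it. It was 1 of 7 members with a p under 0.05, where 4.42% of genes had one in the higher direction and 3.7% in the lower, and groups did not overlap in that direction for 6.2% of genes. No member was called, against 0.1% of genes.

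In KO muscle all 5 remaining genes had positive diet differences, from 0.20 for Hspb8 to 0.54 for Hspb7 (log2). Hspb3 was the only one with an unadjusted p under 0.05, at 0.50 ± 0.19 (log2, SE), with limma p of 0.020 before adjustment and 0.43 after it, and its diets did not overlap. Hspb2 ran only from 0.35 to 1.92 FPKM in KO muscle and passed the filter through its WT samples. Its diet difference in KO muscle is therefore not interpreted. At an unadjusted p under 0.05, shares of all genes were 6.56% higher and 4.73% lower. Groups did not overlap in the higher direction for 10.7% of genes. No gene of the whole table was called, a share of 0%.

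Other markers differed with diet in KO muscle beside these genes, none of them called with limma. Of 6 skeletal muscle markers 5 were positive, with a list median of 0.30, and all 7 slow fibre markers were, with a median of 0.61 (log2). The negative skeletal muscle marker was Acta1, which was listed at 0 in KO high fat sample 2. All 3 Schwann cell markers were negative, with a median of -0.82, and so were the 3 B cell and 3 T cell markers, with medians of -2.05 and -1.74. The lymphocyte differences rest on KO chow samples 1 and 3, with B cell sums of 33.9 and 35.4 FPKM. KO chow sample 2 was at 0.050 FPKM, below the 0.15 to 0.65 FPKM of KO high fat samples. The median over all genes was 0.03. Counts at an unadjusted p under 0.05 were 2 higher for skeletal muscle, 0 for slow fibres and 2 lower for each of the other lists. Their part in the diet differences was not tested.

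The interaction asks whether the genotype difference changed with diet. Hspb8 had the largest estimate of the 5, 0.43 ± 0.31 (log2, SE), with limma p of 0.20 before adjustment and 0.90 after it. None of the 5 had an unadjusted p under 0.05, against 3.55% of genes in the positive and 2.70% in the negative direction, and 0% of genes were called. The non-overlap of Hspb1 and Hspb8 on high fat diet is therefore not shown to differ from chow.

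How the genes varied among samples was compared over all 12 samples, as a description. Hspb1 and Hspb7 had a Pearson r of 0.90, and Hspb1 and Hspb8 one of 0.85. After group means were removed these were 0.88 and 0.89. Hspb6 went with Hspb3 at 0.81 both ways and with Hspb1 at 0.22 over all samples but 0.62 within groups. The points share library, tissue make-up and scaling.

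Among all genes tested, the 3 most like Hspb1 over 12 samples were Tubb2a (r = 0.91), a β-tubulin, Cct3 (0.90), a subunit of the cytosolic chaperonin, and Hspb7 (0.90). Those most like Hspb8 were Ncs1 (0.94), Ube2g2 (0.91) and Tmem62 (0.90), and those most like Hspb7 were Arpp21 (0.94), Ddx56 (0.91) and Hspb1. Hspb6 was followed by Inpp5j (0.94), Mrpl41 (0.93) and Tcta (0.93), and Hspb3 by Trub2 (0.95), Tomm22 (0.95) and Hmga1 (0.94). Cryab and Hspb2 were most like each other and like 2310030G06Rik and 2310014F07Rik, at r of 0.98 to 0.99, a range set by their absence in KO muscle.

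Of the other small heat shock protein genes, Cryaa, Hspb9 and Odf1 were at most 0.242 FPKM in any sample and were not tested. Hspb11 encodes IFT25, a subunit of intraflagellar transport that carries the family name. On chow WT muscle held at least 7.95 FPKM and KO muscle at most 7.74 FPKM, and on high fat diet at least 8.58 and at most 8.47 FPKM. KO samples thus lay below WT on both diets, as they did for 10.2% of all genes on chow and 10.7% on high fat diet. The averaged difference was -0.34 ± 0.08 (log2, SE), and its adjusted p of 0.059 (limma) missed the threshold. It was 1 of 1 gene tested from that list.

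Other chaperones, co-chaperones, heat shock factors, kinases and sarcomeric genes were followed with a list of 30 genes, all tested. The list is wider than the chaperones that receive substrates from small heat shock proteins. With limma 0 of 30 were called in any of the 6 comparisons, beside 0.862% of all genes for genotype averaged over diets. At an unadjusted p under 0.05 in that comparison 1 was higher and 3 were lower, beside 13.1% and 13.4% of all genes. The higher one was Hspa5, and the lower ones were Hspa9, Hspe1 and Hsf1. The median difference was -0.05 beside -0.02 over all genes. The most positive estimate was that of Hsp90aa1, the inducible Hsp90, at 0.35 ± 0.19, and the most negative that of Hspa1l, an Hsp70 relative, at -0.33 ± 0.16 (log2, SE). Neither passed, with adjusted p of 0.25 and 0.21.

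Bag3 and Hsf1 are given because of their roles beside HSPB8 and the motif above, and were chosen after their values were seen. Bag3 had mean levels of 65.9 and 70.7 FPKM in WT and 63.4 and 76.6 FPKM in KO muscle on chow and high fat diet, an averaged difference of 0.02 ± 0.10 (log2, SE) with an interval of -0.20 to 0.24. Hsf1 had an averaged difference of -0.20 ± 0.07, and limma p of 0.010 before adjustment and 0.097 after it.

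**Figure D4:**
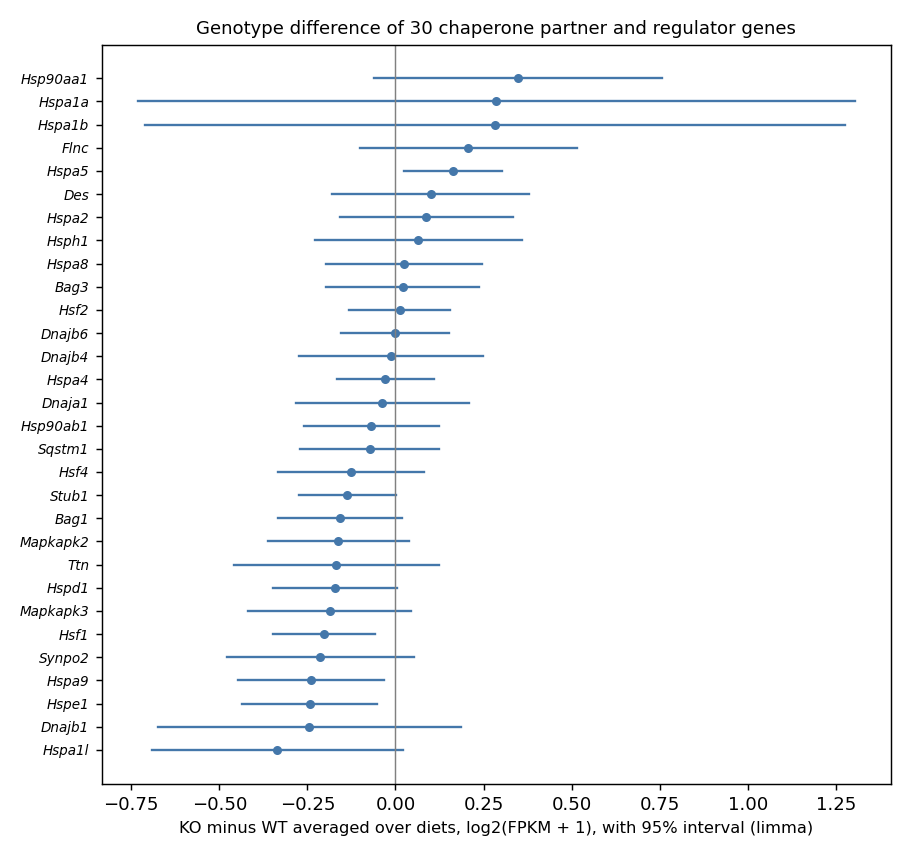
Difference between KO and WT averaged over diets for the 30 listed chaperone and associated genes on log2(FPKM + 1), sorted by estimate, with 95% limma intervals. Estimates lie from -0.33 for Hspa1l to 0.35 for Hsp90aa1, and 0 of 30 passed the adjusted threshold.

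Markers of other cells were compared in the same way, and 1 of them was called for genotype averaged over diets, where 0.862% of all genes were called and 13.1% were higher at an unadjusted p under 0.05. All 4 macrophage markers had positive differences and passed that unadjusted p. Emr1 (F4/80) was the one called, at 0.89 ± 0.16 (log2, SE, adjusted p = 0.042, limma). Their sum ran from 9.97 to 39.5 FPKM in WT and from 43.4 to 89.7 FPKM in KO muscle.

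Summed adipocyte markers ran from 3.11 to 283 FPKM in WT and from 273 to 584 FPKM in KO muscle, with 4 of 4 markers positive, 4 at an unadjusted p under 0.05, beside the same 13.1% of all genes, and 0 called with limma. All 4 smooth muscle markers had negative differences averaged over diets, 3 of them at an unadjusted p under 0.05, beside 13.4% of all genes, and 0 were called. Their sum ran from 74.5 to 128 FPKM in WT and from 70.9 to 87.6 FPKM in KO muscle. Of fibre markers, averaged over diets, all 6 skeletal muscle markers were negative and 6 of 7 slow fibre markers positive. None of these had an unadjusted p under 0.05. The 2 fast fibre markers tested were negative, and Myh1 was at -0.55 ± 0.17 (log2, SE). Its limma p was 0.0090 before adjustment and 0.093 after it, beside the same 13.4% of all genes. KO high fat sample 2, the highest for Hspb1, Hspb3, Hspb6, Hspb7 and Hspb8 among KO samples on that diet, also had the highest macrophage sum of all samples. Its desmin (Des) level, 3062 FPKM, and its fibroblast sum, 769 FPKM, were likewise the highest of all samples. Within its group it had the highest slow fibre sum, 1672 FPKM. Its adipocyte and endothelial sums, 278 and 63.8 FPKM, were the lowest of that group. The part of these cells and fibres in the levels of the small heat shock protein genes was not tested.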

How the data were processed

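Values were those deposited by the authors, 1 table per sample, in FPKM per gene symbol, with replicates not pooled. Per the submitters' processing notes, TopHat2 2.0.8b, Cuffdiff 2.1.1 and mm10 were used. That the values are FPKM was read from these tools and the values. The genotype label conflicts with the title in 6 samples, and samples were grouped by title.

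Genes with at least 1 FPKM in at least 3 of 12 samples, 11945 in all, were tested on log2(FPKM + 1) with limma 3.58.1 (R 4.3.3) using a variance trend on intensity, 4 group means and 8 residual degrees of freedom. Adjusted p-values were Benjamini-Hochberg over all genes, at 0.05. Intervals are 95% and use limma's moderated errors. The test was run on simulated data whose changes were larger than the differences seen for the remaining genes. That check does not bear on its power for differences of their size. Other values came from Python 3.11.15 and pandas 2.3.3. Positions are from GENCODE M21 (GRCm38) and promoters from RefSeq (GRCm38.p6).

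The rule for members uses symbols only, but members and lists were chosen with earlier results of these data known. Named genes were the 7 members, list genes past the threshold or otherwise a list's largest rise and fall averaged over diets, and the 3 genes most like each member. Depth in reads is unknown, so counting error cannot be given. Alternatives were a pseudocount of 0.1, no filter, a replicate block, fits of the compared groups alone, grouping by genotype label, median-of-ratios and quantile scaling, no trend, and each sample left out. Scaling by skeletal muscle markers and leaving out 3 lymphocyte-rich or 2 slow-fibre-poor samples were chosen after seeing the data. Leaving out the lymphocyte-rich samples kept only KO chow sample 2 in its group.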

Additional observations from a re-analysis of the deposited data

How the results depend on the processing

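Counts of genes called with limma moved with the setting, while no remaining small heat shock protein gene was called under any. With the main settings the counts were 7 for genotype on chow, 13 on high fat diet, 103 averaged over diets, 12 for diet in WT and 0 for diet in KO muscle and for the interaction. In that order of comparisons, the replicate number as a block gave 4, 5, 40 and 7 for the first 4. Using only the 2 groups compared gave 4 on chow, 8 on high fat diet, 3 for diet in WT and 7 for diet in KO. No filter on low values gave 24 on high fat diet, 42 averaged, 6 for diet in KO and 1 for the interaction. Quantile normalization gave 26, 200 and 9 for high fat diet, averaged and diet in KO, and no intensity trend 2 for diet in KO. Same-numbered samples did not deviate together, with correlations from -0.81 to 0.39 over the pairs, so the numbers were not taken to pair them.

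Grouping by genotype label put samples with high Cryab in both genotypes and called 0 genes for genotype on either diet, averaged, and for diet in WT. Differences (log2) then had the opposite sign to the main ones. On chow these were Hspb1 -0.22, Hspb7 -0.044 and Hspb8 -0.21. On high fat diet they were Cryab 6.13, Hspb2 4.25, Hspb1 -0.37, Hspb3 -0.14, Hspb6 0.26, Hspb7 -0.53 and Hspb8 -0.60, with -0.18 for the summed 5 genes. Averaged they were Cryab 0.096, Hspb1 -0.29, Hspb7 -0.29 and Hspb8 -0.41. For diet they were Cryab -5.77, Hspb2 -4.00 and Hspb8 0.31 in WT, Hspb8 -0.075 in KO, and for the interaction Cryab 12.07, Hspb1 -0.16, Hspb7 -0.48 and Hspb8 -0.39.

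Skeletal muscle marker scaling, chosen after seeing the data, called 5 genes on high fat diet, 18 averaged and 2 for diet in WT, and put the summed 5 genes at 0.34 on chow (log2, KO over WT). Signs changed for Hspb3 at 0.092, -0.00801 and 0.042 for genotype on chow, on high fat diet and averaged. They also changed for Cryab -0.17, Hspb1 -0.052 and Hspb8 -0.16 for diet in KO, and Hspb1 -0.24, Hspb3 -0.10, Hspb6 -0.38 and Hspb7 -0.33 for the interaction. Without the 3 lymphocyte-rich samples 11 genes were called averaged and 1 for diet in WT, with Cryab -0.12 for diet in KO and Hspb6 -0.17 and Hspb7 -0.0792 for the interaction. The lymphocyte-rich samples were WT chow sample 2 and KO chow samples 1 and 3, so that fit left KO chow sample 2 alone in its group. Its results for genotype on chow, genotype averaged, diet in KO and the interaction use KO chow. They therefore rest on that sample and cannot show whether the main results are robust. Without the 2 slow-fibre-poor samples 15, 5, 10, 1 and 8 genes were called in the order above up to diet in KO. Hspb3 was then -0.080 for diet in WT. Median-of-ratios scaling gave Hspb6 -0.0119 for the interaction. The cause was not tested.

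Leaving out each sample in turn gave 4 to 14 called genes on chow, 4 to 82 on high fat diet, 10 (without WT chow sample 1) to 1208 (without KO chow sample 2) averaged, 1 to 32 for diet in WT, 0 to 10 for diet in KO and 0 to 1 for the interaction. Ranges that crossed 0 were, for genotype, Hspb8 on chow from -0.077 to 0.37, and Hspb3 from -0.098 to 0.27 on high fat diet and from -0.16 to 0.021 averaged. For diet they were Hspb3 in WT from -0.00024 to 0.33, Cryab in KO from -0.11 to 0.12 and Hspb8 in KO from -0.046 to 0.41. For the interaction they were Hspb1 from -0.11 to 0.47, Hspb6 from -0.15 to 0.26 and Hspb7 from -0.24 to 0.37. The summed 5 genes, KO over WT, ran from -0.20 to 0.13 on chow and from -0.11 to 0.25 on high fat diet.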
